A study of Mus musculus with 2 samples.

Results

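The long noncoding RNA genes Rmst, Sox2ot, Miat, Malat1, Neat1, Dlx6os1, Pantr1 and Otx2os1 were examined for open chromatin in the mouse embryonic midbrain. They were chosen by name, with earlier results of these data known. All 8 were found among the 10155 long noncoding genes of the annotation on chromosomes 1 to 19, X and Y. The assay was DNase-seq, in which DNase I digests nuclear DNA where it is not protected and the cut fragments are sequenced. Midbrains of B6NCrl embryos at 14.5 days, males and females pooled, formed the only group, with 2 biological replicates that were separate biosamples under a single donor entry. The embryos carried no other stated genotype or treatment, and the labels give no further limits of the tissue. The spread between the replicates may therefore be partly technical, and no comparison between conditions was possible. Everything below is a description of these 2 libraries beside the same measure over all genes, with no test.

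Long noncoding RNAs are transcripts longer than most small RNAs that are not translated into protein. Many are transcribed next to, across from or around genes for developmental transcription factors, and for these the act of transcription or the DNA elements in the locus can matter as well as the RNA. Sox2ot runs in the same direction as Sox2 and holds that progenitor factor gene within it. Dlx6os1, also known as Evf2, lies antisense to Dlx6 in the Dlx5 and Dlx6 locus of forebrain interneuron lineages. Otx2os1 starts opposite Otx2, the homeobox gene of forebrain and midbrain, and Pantr1 is transcribed away from Pou3f3, a POU factor gene of neural progenitors and neurons. Rmst stands far from any coding gene and its RNA is known from the floor plate and isthmus of the developing midbrain and as a partner of the Sox2 protein. Miat, also called Gomafu, is a nuclear RNA of neurons. Malat1 is an abundant RNA of nuclear speckles and Neat1 the scaffold of paraspeckles, and both are made in most cell types.

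The authors listed 710176 peaks in replicate 1 and 267958 in replicate 2, nearly all 150 bp wide, each with a whole-number value between 1 and 150. How the value was scaled is not given in the sources used here. Its maximum was 150 in both replicates and its median 6 and 51, and values above 140 made up 0.00366% of peaks in replicate 1 and 2.21% in replicate 2. High values thus lie close together in replicate 2, and values are given per replicate, as replicate 1 then replicate 2, and not compared between them. Read depth is unknown. A promoter peak touched the interval reaching 1000 bp up- and downstream of an annotated transcript start, and a body peak had its centre between the first and last base of the gene. A shared peak was a replicate 2 peak that overlapped a replicate 1 peak by at least 1 bp. Of the marker genes of the labelled tissue, all 7 midbrain genes, all 3 neuronal and all 3 progenitor genes had a shared promoter peak, as did all 4 forebrain genes and 0 of 4 Hox genes of hindbrain and cord. Endothelial genes had one in 2 of 2, erythroid in 1 of 3, microglial in 1 of 2 and mesenchymal in 1 of 2. These libraries are from whole tissue, so more cells with an open site and a site more open in each cell cannot be told apart.

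All 8 noncoding genes had a shared promoter peak. The same held for 39.4% of all long noncoding genes (4000 of 10155, 95% exact Clopper-Pearson interval 38.4 to 40.3, counting error only) and 68.9% of 21938 protein-coding genes. Taken singly, replicate 1 gave a promoter peak to all 8 against 53.3% of long noncoding genes, and replicate 2 to all 8 against 45.3%. The 8 genes have between 3 and 18 annotated starts each, while the median long noncoding gene has 1, and among long noncoding genes with 3 or more starts the share was 67.0%. This last background was chosen after the values were seen. Pantr1 and Otx2os1 have starts within 1000 bp of a coding start. The other 6 genes have none, and for long noncoding genes of that kind the share was 28.9%.

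The promoter sequences below are the strongest shared promoter peaks of 7 of the genes, shown so that the open DNA at these starts can be read beside its signal. For Otx2os1 this is a peak of 27 and 94, lower than the strongest peak of either replicate alone. They are given 5′ to 3′ on the strand of the noncoding gene, from the GRCm38.p6 sequence (mm10) at the replicate 2 interval. Capitals mark exact matches on either strand to any of 16 short motifs: TAATTA (homeodomain core), TAATCC (Otx core), CAGCTG and the neurogenic CAGATG (E-boxes), ACAATG (Sox core), ACAAAG (Sox and TCF core), ATGCAAAT (POU octamer), ATTGG (reversed CCAAT box), GGGCGG (Sp core), CCGGAAG (ETS core), AAGATGGC (YY1 core), TGACGTCA (cyclic AMP element), TATAAA (core bound by TBP), AGGTGGC or its variant AGGGGGC (pieces of the CTCF site) and GTTGCC (piece of the RFX site).
Malat1 promoter peak, chr19:5803576-5803725, minus strand: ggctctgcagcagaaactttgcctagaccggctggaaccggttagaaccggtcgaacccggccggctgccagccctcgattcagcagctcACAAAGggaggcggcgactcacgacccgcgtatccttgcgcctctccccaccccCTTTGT
Pantr1 promoter peak, chr1:42695636-42695785, minus strand: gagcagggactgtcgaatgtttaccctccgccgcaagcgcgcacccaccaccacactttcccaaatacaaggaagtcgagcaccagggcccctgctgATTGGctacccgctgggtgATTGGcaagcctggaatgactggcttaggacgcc
Neat1 promoter peak, chr19:5845856-5846005, minus strand: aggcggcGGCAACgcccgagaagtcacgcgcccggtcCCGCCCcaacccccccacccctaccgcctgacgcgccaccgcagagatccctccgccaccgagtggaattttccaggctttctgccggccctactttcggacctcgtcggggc
Miat promoter peak, chr5:112228916-112229065, minus strand: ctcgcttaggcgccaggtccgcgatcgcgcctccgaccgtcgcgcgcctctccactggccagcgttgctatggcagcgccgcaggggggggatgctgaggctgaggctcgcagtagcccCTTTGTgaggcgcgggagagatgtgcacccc
Sox2ot promoter peak, chr3:34639296-34639445, plus strand: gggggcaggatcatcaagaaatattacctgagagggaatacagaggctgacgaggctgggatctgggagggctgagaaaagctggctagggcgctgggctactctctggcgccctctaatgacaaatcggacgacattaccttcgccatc
Otx2os1 promoter peak, chr14:48669736-48669885, plus strand: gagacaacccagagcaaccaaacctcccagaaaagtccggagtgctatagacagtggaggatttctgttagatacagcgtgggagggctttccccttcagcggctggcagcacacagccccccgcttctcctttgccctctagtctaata
Dlx6os1 promoter peak, chr6:6860936-6861085, minus strand: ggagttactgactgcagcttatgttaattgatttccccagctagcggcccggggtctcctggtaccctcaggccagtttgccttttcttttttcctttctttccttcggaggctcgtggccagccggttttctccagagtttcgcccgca

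These promoter peaks differed widely in CpG content. Neat1 held 18 CpG dinucleotides at 70.7% GC, Miat 17 at 70.7% and Malat1 13 at 64.0%. The shared peaks within 1000 bp of coding starts had a median of 10 CpG and 62.7% GC, and shared peaks further away a median of 2 and 49.3%. Otx2os1 had 4 at 54.7%, between these backgrounds in both measures. Sox2ot had 6, Dlx6os1 7 and Pantr1 8. The peaks of Sox2ot, Dlx6os1 and Otx2os1 held no match to any of the 16 motifs. The peaks of Malat1 and Miat held ACAAAG, which 14.4% of all shared peaks of 150 bp hold. Neat1 held GGGCGG, present in 11.6% of them, and GTTGCC, present in 8.34%. Pantr1 held ATTGG at 2 places, and 19.5% of shared peaks hold it at least once.

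The strongest promoter peaks were those of the nuclear RNAs and of Pantr1. Malat1 reached 119 and 146, Pantr1 112 and 145, Neat1 95 and 142, and Miat 93 and 141. In the middle stood Sox2ot with 78 and 121 and Rmst with 76 and 125. Otx2os1 followed with 36 and 106 and Dlx6os1 came last with 17 and 81. Long noncoding genes with a promoter peak had a median of 28.0 and 99.0 for their strongest one. Thus 7 of the 8 genes stood above the median in each replicate, and Dlx6os1 below it in both. Each value is the highest over all starts of a gene, and these genes have more starts than the median long noncoding gene. A median matched for the number of starts was not computed. With the 5′ end alone Sox2ot read 39 and 93, below the median in replicate 2. Dlx6os1 then read 15 and 62, and the other genes kept their values. For Otx2os1 these were different peaks in the 2 replicates, and its strongest shared peak, 27 and 94, lay below both medians. The order was the same in both replicates except that Rmst and Sox2ot changed places, although the first 4 genes lay within 141 to 146 in replicate 2, near the maximum. Ranked among those genes, Malat1 stood at percentile 94.8 in both replicates, while Dlx6os1 stood at 38.2 and 38.3.

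**Figure D1:**
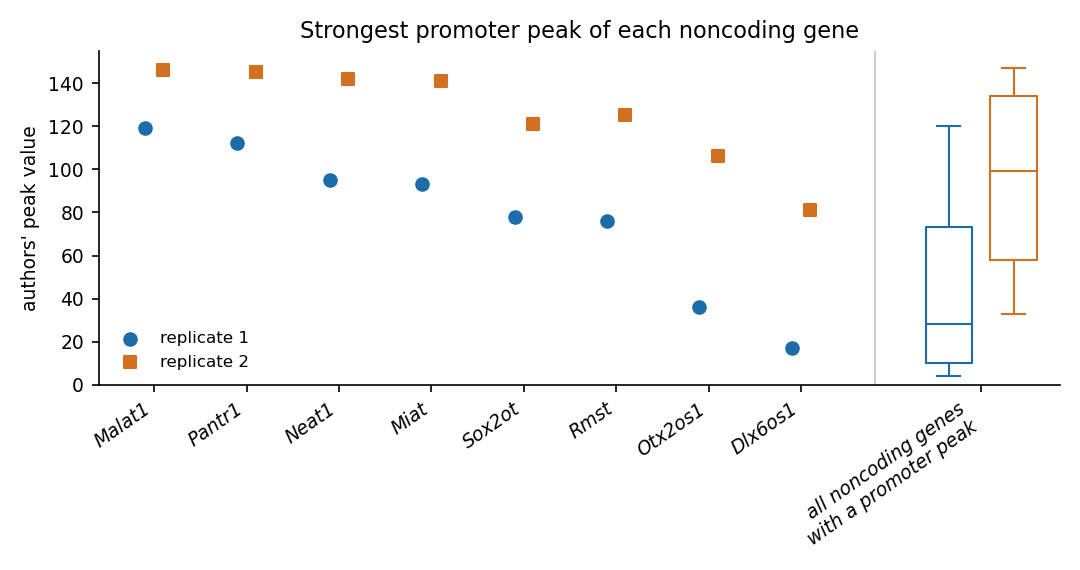
Value of the strongest promoter peak of each noncoding gene in replicate 1 (circles) and replicate 2 (squares), as the authors' peak value, beside boxes for all long noncoding genes with a promoter peak (quartiles and median, whiskers at the 5th and 95th percentile). In each replicate 7 genes lie above the median of 28.0 or 99.0 and Dlx6os1, at 17 and 81, lies below it. Each value is the highest over all starts of a gene, and the boxes are not matched for the number of starts. The 2 values of Otx2os1 are from peaks that do not overlap, and its strongest shared peak read 27 and 94.

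Several of these values depended on which start or which neighbour lay inside the window. The strongest Malat1 peak lay 979 bp upstream of its 5′ end, and the peak 19 bp upstream of that start read 104 and 137. The strongest Pantr1 peak was centred 57 bp from the Pou3f3 start and 869 bp from the nearest Pantr1 start, the 5′ ends of the 2 genes being 926 bp apart. It is thus the same peak that gave Pou3f3 its promoter value, and the one nearest Pantr1's own 5′ end, 149 bp upstream, read 74 and 126. The peaks nearest the start of these 2 genes, added after the values were seen, read as follows.
Malat1 peak at the 5′ end, chr19:5802616-5802765, minus strand: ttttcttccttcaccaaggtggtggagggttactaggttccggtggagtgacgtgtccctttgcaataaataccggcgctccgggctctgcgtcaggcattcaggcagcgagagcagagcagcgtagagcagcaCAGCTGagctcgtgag
Pantr1 peak at the 5′ end, chr1:42694916-42695065, minus strand: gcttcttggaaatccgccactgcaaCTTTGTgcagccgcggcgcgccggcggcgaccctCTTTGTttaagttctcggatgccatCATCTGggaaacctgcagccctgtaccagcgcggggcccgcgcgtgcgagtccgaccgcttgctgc

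The Pantr1 peak at its own 5′ end held 17 CpG, against 8 in the one at Pou3f3, and had 2 matches to ACAAAG and 1 to CAGATG. With the window narrowed to 500 bp the strongest values of Malat1 and Pantr1 became those of these 2 peaks. In Sox2ot the strongest promoter peak lay 867 bp inside one of the late starts, 11034 bp from the Sox2 start, and the 5′ end itself had 39 and 93. In Otx2os1 the strongest peaks of the 2 replicates, 36 and 106, did not overlap each other. Its strongest shared peak read 27 and 94, and with a window of 2000 bp its values became 79 and 134, which are those of the Otx2 promoter. For Dlx6os1 a window of 2000 bp took in the Dlx6 promoter peak at 63 and 115.

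Of the 65 annotated starts of the 8 genes, 57 (87.7%) had a shared peak in their window, against 41.3% of all 14955 starts of long noncoding genes and 54.6% of the 4106 starts of genes with 3 or more. Shared peaks lay at 17 of 18 starts of Sox2ot, 12 of 13 of Rmst, 7 of 7 of Otx2os1, 6 of 6 of Miat, 4 of 4 of Malat1, 3 of 4 of Neat1 and 2 of 3 of Dlx6os1. Pantr1 had one at 6 of 10 starts. Its 6 starts next to Pou3f3 were the open ones, and of the 4 inside the gene 3 had a peak of value 15 in replicate 1 only and 1 had no peak. Neighbouring windows overlap, so starts are not separate observations. Within Rmst the starts at the 5′ end had 76 and 125, those within the next few kilobases 40 to 45 and 121, a start in the far 3′ part 46 and 105, and the one nearest the 3′ end had no peak.

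The gene bodies held 283 shared peaks in all, 273 of them more than 1000 bp from any coding start. These counts rest on the peaks used: they were 679 and 665 with replicate 1 peaks alone, and 140 and 131 among the 100000 highest peaks of each replicate. All 8 genes had at least 1, against 50.3% of long noncoding genes, whose median length of 6141 bp is shorter than each of the 8. Pooled over the 8 bodies the density was 2.64 shared peaks per 10 kb, against 0.865 pooled over 9369 long noncoding genes of 1 kb or longer and 0.804 over 5611 of 5 kb or longer. The medians of single genes were 0.290 and 0.634. All 8 exceeded the first median, and all but Neat1 the second. Malat1 had the highest density at 15.8 per 10 kb, percentile 99.9 of genes of 5 kb or longer, followed by Miat at 7.42 and Dlx6os1 at 6.42. Pantr1 had 2.88, Rmst 2.87, Otx2os1 2.23 and Sox2ot 2.14, all above the upper quartile of 1.51. Neat1 had 0.481, percentile 44.4.

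**Figure D2:**
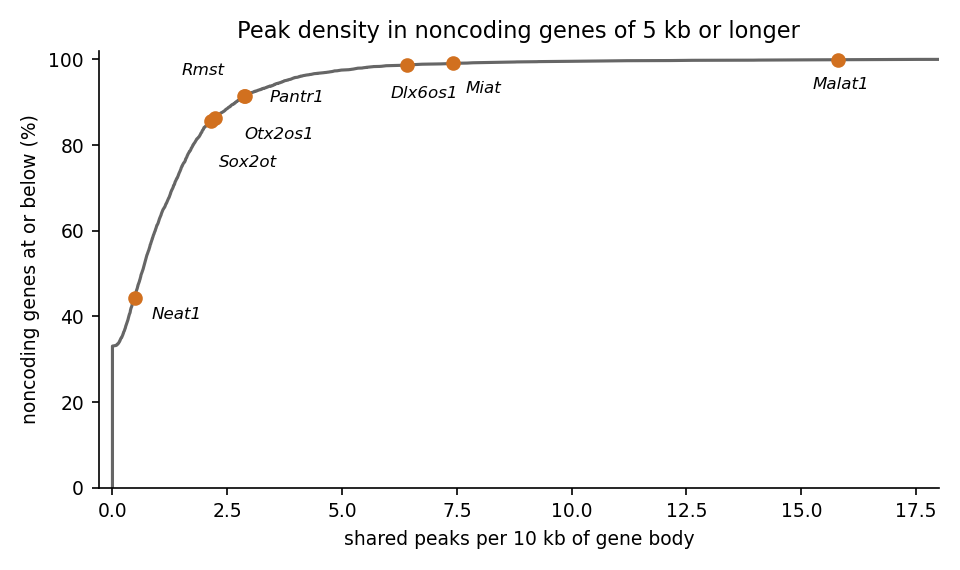
Cumulative share (%) of long noncoding genes of 5 kb or longer against the number of shared peaks per 10 kb of gene body, with the 8 genes as points on the curve. Malat1 (15.8), Miat (7.42) and Dlx6os1 (6.42) lie at the top, and Neat1 (0.481) lies below the median of 0.634.

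The 2 nuclear body RNAs, which are neighbours on chromosome 19, differed most in their bodies. Malat1 (chr19:5795690-5802672, minus strand, 6983 bp) held 11 shared peaks, all in exons, with values of 10 to 35 in replicate 1 and 38 to 83 in replicate 2. Hotspots, the authors' wider accessible regions, of both replicates covered 67.6% of it. Neat1 (chr19:5824708-5845478, minus strand, 20771 bp) held a single shared peak, in an exon, of 12 and 35, and hotspots of both replicates covered 0.905% of it. The 18042 bp at its 3′ end, 86.9% of the gene, held no shared peak. The share of either body that is exon was not counted, so a place in an exon by itself says little about these peaks. The promoter peak of Malat1, at 119 and 146, was higher than that of Neat1, at 95 and 142. Among the strongest promoter peaks of long noncoding genes they stood at percentiles 94.8 and 84.1 in replicate 1. In replicate 2 they stood at 94.8 and 87.0. In these 2 genes a strong promoter peak thus went with very different bodies. The flanking coding gene Frmd8, which codes for a partner of the iRhom proteins, had promoter values of 110 and 142 and lies 4223 bp from Neat1 and 47029 bp from Malat1.

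Miat (chr5:112213228-112229395, minus strand, 16168 bp) also held dense peaks. Of its 12 shared body peaks 8 lay in exons, and the strongest away from its own starts, at 84 and 131, lay in an exon towards the 3′ end, 14030 bp from the nearest Miat start but in the start window of another annotated gene. The strongest outside the start windows of every gene, at 63 and 126, lay in an exon 15090 bp from the nearest Miat start. No shared peak lay in a stretch of 7900 bp in the middle, with 6 on either side. Only 3 of the 12 lay outside the start windows of every gene. Most of the 6 on the 3′ side lay in start windows of other annotated genes. The nearest coding genes were Cryba4, a lens crystallin gene 17097 bp away, and Gm26897, annotated as coding and 478653 bp away. Each had a promoter peak of 5 in replicate 1 and none in replicate 2. Miat was thus the only one of the 8 with no shared promoter peak at either flanking coding gene.

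Rmst (chr10:92071037-92165170, minus strand, 94134 bp) had 27 shared body peaks, 19 in introns and 8 in exons, and 17 of the 27 lay within 10 kb of its 5′ end. The longest stretch without one was 22780 bp. A second group stood near the 3′ end, where the strongest peak outside all start windows had 40 and 84. Rmst is isolated from coding genes. Nedd1, needed to recruit gamma-tubulin to the centrosome, lies 519575 bp away with promoter values of 98 and 142, and Tmpo, a nuclear lamina protein gene, lies 889721 bp away with 117 and 144. The 27 peaks had a median GC content of 44.0%, against 48.7% over the body peaks of all 8 genes.

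Sox2ot (chr3:34104270-34682619, plus strand, 578350 bp) held 124 shared peaks, the highest number among all 10155 long noncoding genes, and 116 of them lay in introns. Its length is far above the median of 6141 bp, and the count per 10 kb, 2.14, was the lowest of the 8 after Neat1. The peaks crowded around Sox2. Within 20 kb of the Sox2 5′ end stood 45 peaks, or 11.2 per 10 kb, and the remaining 79 gave 1.47 per 10 kb. The density was 15.5 within 10 kb and 6.45 within 50 kb. Late Sox2ot starts, 5631 to 14838 bp from the Sox2 start, lie in the same 20 kb. Nearness to Sox2 and to these starts cannot be told apart. The highest body peak, 95 and 141, was the promoter peak of Sox2 itself. The 3 strongest outside all start windows were 61 and 121, at 7654 bp from the Sox2 start, 59 and 121 at 9514 bp, and 63 and 118 at 238674 bp from it. The last lay deep in the upstream part of Sox2ot, 148597 bp from the nearest Sox2ot start. The flanking genes Dnajc19, a mitochondrial import gene 22948 bp away, and Atp11b, a phospholipid flippase gene 1071486 bp away, had promoter values of 103 and 144 and of 65 and 136.

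Pantr1 (chr1:42590782-42694842, minus strand, 104061 bp) had its peaks crowded at the end it shares with its partner. Of its 30 shared body peaks 23 lay within 20 kb of the Pou3f3 5′ end, or 12.1 per 10 kb, and 7 further away, or 0.824 per 10 kb. Within 10 kb the density was 18.7 and within 50 kb 4.69. With the 5′ ends 926 bp apart, 18 of the 30 also lay within 10 kb of Pantr1's own 5′ end, and nearness to Pou3f3 and to its own start cannot be told apart. A stretch of 44220 bp, 42.5% of the gene, separated these 23 from the other 7. The strongest body peak outside all start windows read 76 and 132, higher than the 74 and 126 at the 5′ end of Pantr1. It had 18 CpG and 72.7% GC. On the far side the nearest coding gene was Tmem182, a muscle membrane protein gene 1733894 bp away, which had no promoter peak in either replicate.

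Otx2os1 (chr14:48668708-48870683, plus strand, 201976 bp) had 45 shared body peaks, 42 of them in introns, spread in groups along the gene. Within 20 kb of the Otx2 5′ end there were 11, or 4.38 per 10 kb, against 1.92 per 10 kb for the other 34. That contrast was less marked than in Sox2ot or Pantr1 in these counts. All 11 lay within 10 kb, where the density was 7.28 against 1.82 outside, and within 50 kb it was 2.90. With the 5′ ends of Otx2os1 and Otx2 5111 bp apart, nearness to Otx2 and to its own starts cannot be told apart. The 3 strongest peaks outside the start windows of every gene stood 36325 to 181005 bp from its nearest start and read 71 and 123, 53 and 109, and 46 and 108. A further one in the start window of another annotated gene, 67545 bp from the nearest Otx2os1 start, read 64 and 115. All 4 were above the 27 and 94 of its own strongest shared promoter peak. Otx2, whose gene it overlaps on the opposite strand, had promoter values of 79 and 134. Exoc5, an exocyst subunit gene 133406 bp away, had 116 and 147, and Tmem260, 144461 bp away, 90 and 141.

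Dlx6os1 (chr6:6820189-6871592, minus strand, 51404 bp) combined the lowest promoter peak of the 8 with a densely covered 5′ part. All 33 of its shared body peaks lay within 20 kb of the Dlx6 5′ end, at 11.7 per 10 kb, and the 27561 bp at its 3′ end, 53.6% of the gene, held none. The 5′ ends of Dlx6os1 and Dlx6 are 8258 bp apart, so nearness to Dlx6 and to its own starts cannot be told apart. The 33 peaks had a median of 8 and 53.0, slightly above the 6 and 51 of all peaks, shared or not, in each replicate. The medians of the other genes, leaving out Neat1 with its single peak, were higher, at 18.5 to 38.5 and 61.0 to 101. The highest of the 33, at 63 and 115, was the promoter peak of Dlx6. Dlx5, the paired homeobox gene 6212 bp away, had 34 and 91, and Sem1, a proteasome subunit gene 241525 bp away, had 95 and 133.

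**Figure D3:**
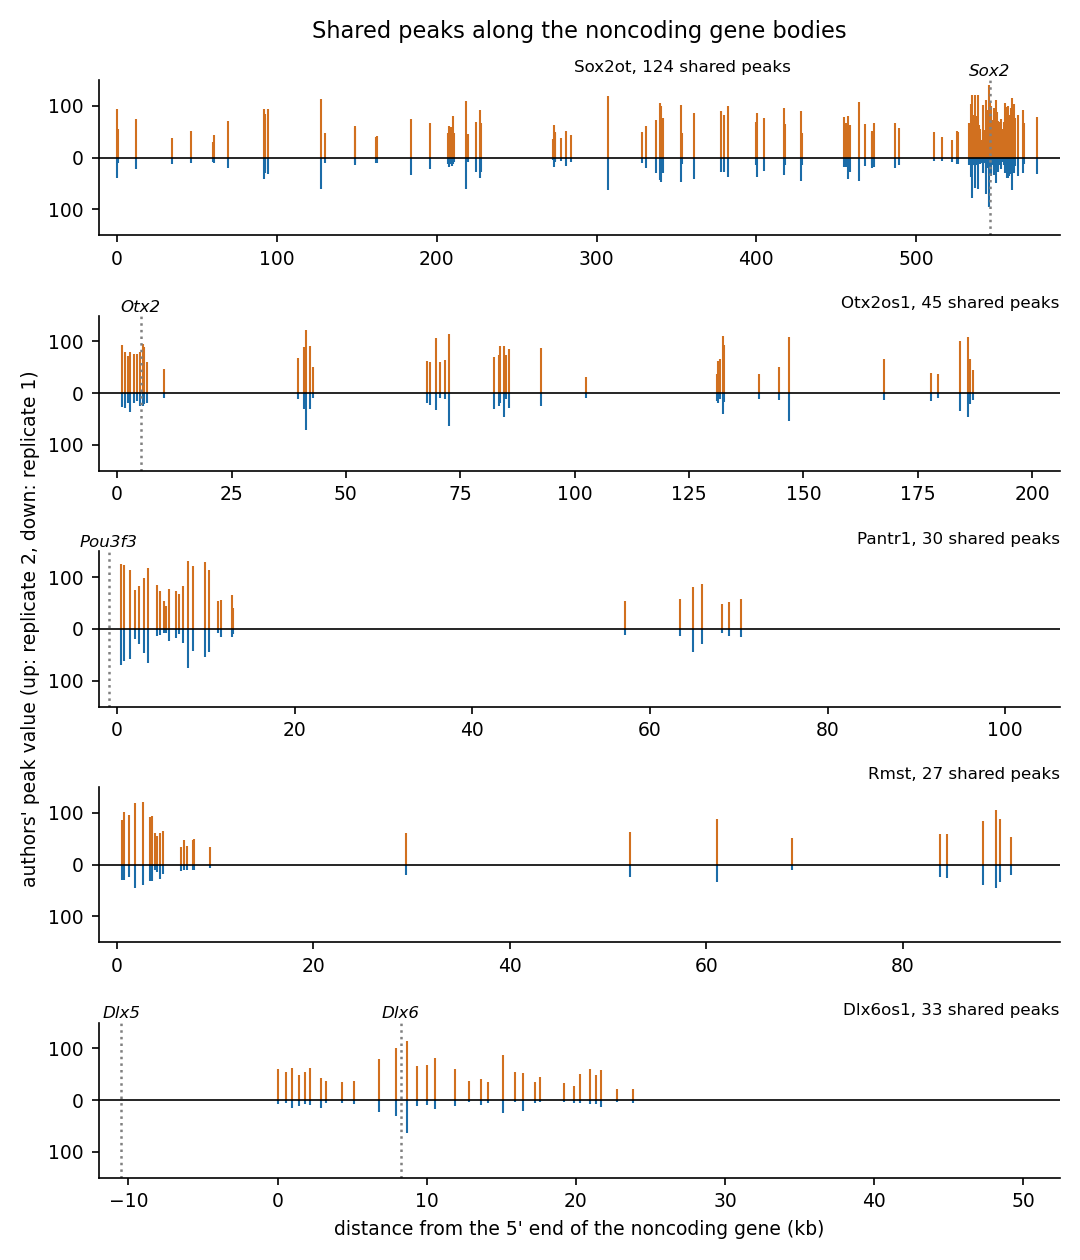
Shared peaks along 5 noncoding genes, as distance in kb from the gene's 5′ end, with the authors' peak value in replicate 2 drawn upwards and in replicate 1 downwards. Dotted lines mark the 5′ ends of the coding genes Sox2, Otx2, Pou3f3, Dlx5 and Dlx6. Peaks crowd around Sox2, Dlx6 and the neighbouring 5′ ends of Pantr1 and Pou3f3, while those of Otx2os1 stand in groups along the gene and those of Rmst gather at its 5′ end.

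The strongest body peaks outside the start windows of every gene are given below in the same form, 1 per gene. They are shown because in Sox2ot, Pantr1, Otx2os1 and Dlx6os1 they are as strong as or stronger than the noncoding 5′ end. The Dlx6os1 body peak read 25 and 88, against 15 and 62 at its 5′ end. In Malat1, Miat and Neat1 they lie in exons, but the share of each body that is exon was not counted.
Pantr1 body peak, chr1:42686776-42686925, minus strand: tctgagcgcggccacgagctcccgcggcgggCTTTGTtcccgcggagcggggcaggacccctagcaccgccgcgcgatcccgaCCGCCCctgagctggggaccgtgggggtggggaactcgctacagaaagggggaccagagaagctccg
Miat body peak, chr5:112213476-112213625, minus strand: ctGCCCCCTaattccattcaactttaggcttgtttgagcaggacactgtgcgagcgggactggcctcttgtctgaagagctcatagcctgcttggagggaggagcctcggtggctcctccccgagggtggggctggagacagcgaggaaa
Otx2os1 body peak, chr14:48709916-48710065, plus strand: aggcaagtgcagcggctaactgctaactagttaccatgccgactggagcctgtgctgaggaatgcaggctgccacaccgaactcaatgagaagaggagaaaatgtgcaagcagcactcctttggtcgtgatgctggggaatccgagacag
Sox2ot body peak, chr3:34642676-34642825, plus strand: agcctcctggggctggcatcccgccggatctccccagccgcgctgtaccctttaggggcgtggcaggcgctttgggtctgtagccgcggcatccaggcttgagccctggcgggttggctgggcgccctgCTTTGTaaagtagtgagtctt
Rmst body peak, chr10:92076916-92077065, minus strand: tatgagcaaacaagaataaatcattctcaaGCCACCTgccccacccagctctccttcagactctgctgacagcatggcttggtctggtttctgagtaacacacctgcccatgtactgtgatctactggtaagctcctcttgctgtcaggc
Dlx6os1 body peak, chr6:6856436-6856585, minus strand: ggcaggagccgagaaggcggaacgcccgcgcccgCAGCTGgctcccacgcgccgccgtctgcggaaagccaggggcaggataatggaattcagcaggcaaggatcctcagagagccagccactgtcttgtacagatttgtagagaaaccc
Malat1 body peak, chr19:5800136-5800285, minus strand: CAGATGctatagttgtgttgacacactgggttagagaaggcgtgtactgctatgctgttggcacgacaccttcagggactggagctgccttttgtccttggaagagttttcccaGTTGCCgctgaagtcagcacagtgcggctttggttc
Neat1 body peak, chr19:5842676-5842825, minus strand: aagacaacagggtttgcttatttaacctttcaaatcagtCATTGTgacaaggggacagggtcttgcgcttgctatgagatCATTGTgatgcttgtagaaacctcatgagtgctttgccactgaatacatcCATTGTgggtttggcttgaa

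The Neat1 peak held ACAATG at 3 places, and the Pantr1 and Sox2ot peaks held ACAAAG. The Miat and Rmst peaks held AGGGGGC and AGGTGGC in turn, which 5.88% and 4.84% of all shared peaks hold. Over the 273 body peaks away from coding starts, however, the motif shares stood near those of 140437 shared peaks that far from coding starts. ACAAAG was found in 18.3% (95% exact Clopper-Pearson interval 13.9 to 23.4) against 15.7%, ACAATG in 9.52% against 8.90%, and CAGATG in 14.3% against 15.4%. TAATTA was found in 8.06% (5.12 to 11.9) against 5.75%. Of its 22 peaks 14 lay in Sox2ot, which held 121 of the 273. GGGCGG, at 2.56% (1.04 to 5.21) against 5.58%, was the only one whose interval did not include the background, out of 16 motifs looked at. The intervals cover counting error only and take the peaks as separate draws. Many are neighbours in the same gene body, so the difference is a description and not a test. TGACGTCA was in 0 of 273 (upper limit 1.34%) against 0.307%. The median GC content was 48.7% against 49.3%.

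Hotspots set 3 of the genes apart by their width. The hotspot over the strongest shared promoter peak was 7379 and 8813 bp wide in Pantr1, 6493 and 7081 bp in Dlx6os1 and 6721 and 6002 bp in Sox2ot, where the median hotspot was 201 and 250 bp wide. The other 5 genes had hotspots of 717 to 3307 bp there. All but 1 of these 16 hotspots stood at the −log10 q cap of 100, the exception being Otx2os1 in replicate 1 at 5.70. The wide hotspots held 11 to 17 peaks each. Those of Pantr1 and Dlx6os1 also covered the starts of Pou3f3 and Dlx6, and that of Sox2ot covered no coding start.

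Hotspots wider than 5000 bp, a limit chosen after the widths were seen, numbered 63 in replicate 1 and 130 in replicate 2. Among the long noncoding genes 0.108%, or 11 of 10155, had a start window under such a hotspot in both replicates, and Dlx6os1, Pantr1 and Sox2ot were 3 of the 11. Among protein-coding genes 0.0912% did. With limits of 3000 and 4000 bp the same 3 of the 8 genes had one, beside 0.739% and 0.256% of long noncoding genes. Mir124-2hg and Mir124a-1hg, host genes of the neuronal microRNA miR-124, were also among the 11. In Otx2os1 a hotspot of 5435 bp lay over its strongest peak in replicate 2, where replicate 1 had 547 bp over its own. Dlx6os1 had the lowest promoter values and a very wide hotspot. Only 22 hotspots in replicate 1 and 37 in replicate 2 matched or exceeded it in width, itself included. That hotspot also held the Dlx6 promoter peak of 63 and 115, so its width cannot be set against the Dlx6os1 peak alone.

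**Figure D4:**
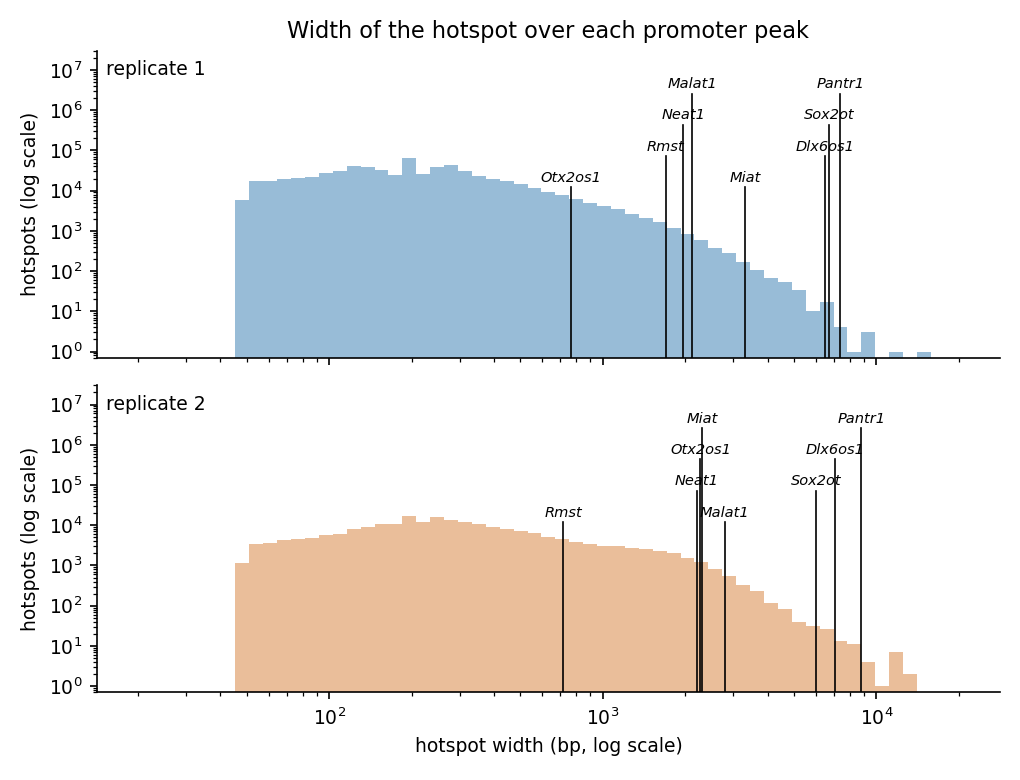
Number of hotspots (log scale) by width in bp (log scale) in replicate 1 and replicate 2, with vertical lines at the hotspot over the strongest shared promoter peak of each noncoding gene; line height has no meaning. Pantr1, Dlx6os1 and Sox2ot lie above 5000 bp in both replicates, and the other 5 genes between 717 and 3307 bp.

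The 8 genes stood among other long noncoding genes as follows. A shared promoter peak was found for 39.4% of all long noncoding genes and for 67.0% of those with 3 or more starts. The lists below were not matched to either share by number of starts. Of 17 further genes of neural regulator or imprinted neural loci, 14 had a shared promoter peak, led by Lhx1os with 100 and 139, Emx2os with 77 and 137 and Peg13 with 85 and 132. Rian (5 and 50, at peaks that were not shared), Six3os1 (18 in replicate 1 only) and Mirg (16 in replicate 1 only) had none. Of 17 broadly expressed ones all 17 had one, led by Snhg1 with 131 and 149, Snhg15 with 118 and 149 and Snhg8 with 123 and 147, hosts of small nucleolar RNAs. Of 15 known from other tissues 9 had one, led by Wt1os with 45 and 87, Hotairm1 with 34 and 89 and Fendrr with 19 and 97. Hoxa11os, Myhas, Hoxb5os, Hoxaas3, Hotair and Nctc1 had none. Of the leading genes, Lhx1os, Emx2os, Snhg1, Wt1os and Hotairm1 have a start within 1000 bp of a coding start. Their values may be those of a neighbouring coding promoter, which was not tested. Malat1, the highest of the 8 genes, was below Snhg1 in both replicates, and Dlx6os1, the lowest, was within the range of the list of other tissues. The name of neural loci applies to the location of Sox2ot, Dlx6os1, Pantr1 and Otx2os1 beside neural transcription factor genes, while Malat1 and Neat1 are known as RNAs of most cell types.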

How the data were processed

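Per the labels, both midbrain samples were assayed by DNase-seq and the files are on mm10. Which aligner and peak caller were used is not given in the sources used here. Peaks and hotspots were called per replicate, since the lists are separate. The peak value is the authors' signal, a whole number of at most 150 whose scaling is not stated and which crowds towards that maximum in replicate 2; the p and q columns of the peak lists hold no values. The deposited hotspot lists give −log10 q, capped at 100. Read depth is unknown, so values were ranked within a replicate only, and intervals cover counting error only.

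Genes and starts came from GENCODE M21 and sequence from GRCm38.p6; 100.0% of 5925 start codons checked read ATG. Long noncoding genes were all those of the noncoding biotypes; Dlx6os1 also has a small RNA entry of that name, which was not used. Coordinates are 1-based. Shared peaks carry the replicate 2 interval, with the highest overlapping value of replicate 1. Motifs were exact matches on either strand, and windows of different motifs may overlap. A percentile is the share of genes at or below a value. Tools were samtools 1.23.1, matplotlib 3.10.9, scipy 1.17.1, pandas 2.3.3 and numpy 2.4.6 under Python 3.11.15. Counting and overlap steps were tested on simulated data first.

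The genes, lists and motifs were chosen with earlier results of these data known. Named were all 8 genes, their flanking and overlapping coding genes, up to 3 body peaks per gene outside the start windows of every long noncoding or coding gene by mean percentile, the 3 highest genes of each list and its genes without a shared peak. Of the list names, 8 of 25, 1 of 18 and 5 of 20 were not found as long noncoding genes. The 20 kb around coding starts, the 10 kb at the 5′ end, the longest stretches without a peak and the 2 hosts of miR-124 were chosen after the values were seen, and printed promoter sequences are the strongest shared peaks instead of the strongest in either replicate. A flanking coding gene and a promoter sequence are not reported here. Alternatives to the window, the overlap, the peak list and the replicates are given at the end.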

Additional observations from a re-analysis of the deposited data

How the results depend on the processing

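All 8 genes kept a shared promoter peak with windows of 500 and 2000 bp, with the 5′ end alone, with an overlap of at least 75 bp, with hotspots, with starts away from coding starts and in each replicate alone. Among the 100000 highest peaks of each replicate 7 did, Dlx6os1 being lost. The share over all long noncoding genes ranged from 29.5% to 53.3%. The 283 shared body peaks became 140 among the highest 100000 peaks, since fewer peaks were used, and 389 to 679 with 1 replicate left out. The 273 away from coding starts became 131, and 377 to 665. The median density of long noncoding genes was exceeded by 7 of the 8 with replicate 1 peaks alone and by all 8 with replicate 2 peaks alone. The count of 3 genes under wide hotspots was 3 to 4 with 1 replicate left out, Otx2os1 joining in replicate 2. No paired analysis was possible because there is only 1 group. Depth is unknown and replicate 2 has fewer peaks, so a start without a shared peak, as in Rian or Six3os1, may be below detection.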
